A study of Mus musculus with 29 samples.

Results

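Transcripts of 9 enzymes that make or interconvert glutamine, alanine, aspartate, asparagine and proline were followed in brown adipose tissue (BAT) and gastrocnemius muscle (SkM) of mice under calorie restriction (CR) and exercise (EX). The enzymes were chosen by name, as the rows of the deposited count table with the symbols Glul, Gpt, Gpt2, Got1, Got2, Asns, Pycr1, Aldh18a1 and Oat. All 9 were found among the 24770 gene rows, 1 row each. The mice were wild-type C57BL/6J males, treated from 8 weeks of age for 8 weeks. Control mice were sedentary and fed ad libitum, CR mice were sedentary and had their food cut stepwise each week, EX mice were fed ad libitum and ran on a treadmill, and CREX mice had the restricted diet and the treadmill training. BAT gave 15 libraries (3 control, 4 CR, 4 EX and 4 CREX) and SkM gave 14 (4 control, 3 CR, 4 EX and 3 CREX). According to the study's methods the mice fasted for some hours before the tissues were taken, and trained mice were killed a day after their last run.

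These enzymes move the nitrogen of amino acids between carbon skeletons. Muscle exports much of its amino nitrogen as glutamine and alanine, and this export is known to rise in fasting and under glucocorticoids. Glutamine synthetase (Glul) joins ammonia to glutamate. The alanine aminotransferases, cytosolic Gpt and mitochondrial Gpt2, move an amino group between glutamate and pyruvate, and the aspartate aminotransferases, cytosolic Got1 and mitochondrial Got2, move it between glutamate and oxaloacetate and form part of the malate-aspartate shuttle. Asparagine synthetase (Asns) uses glutamine to turn aspartate into asparagine and is a classical target of the stress factor ATF4. Proline is built from glutamate by Aldh18a1, which makes the intermediate shared with ornithine breakdown, and Pycr1, which carries out the last step in mitochondria. Ornithine aminotransferase (Oat) feeds ornithine into the same intermediate.

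The genes lie on 7 chromosomes of the mouse build GRCm38 (mm10) in the GENCODE annotation. Glul spans chr1:153899944-153909723, Gpt chr15:76695716-76699686 and Gpt2 chr8:85492576-85527560. Got1 spans chr19:43499752-43524605 and Got2 chr8:95864134-95888547. Asns spans chr6:7675169-7693254, Pycr1 chr11:120635712-120643769, Aldh18a1 chr19:40550257-40588463 and Oat chr7:132557478-132576398. The values are sums over all exons of a gene, and Got2 has a processed pseudogene with which reads may be shared.

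RefSeq promoter windows (GRCm38.p6, 250 bases before to 50 after the start site) were at hand for 8 of the 9 genes. The C/EBP-ATF response element, the sequence through which ATF4 acts and searched here as TGATGNAA on both strands, was present in 3 of them, Got1, Asns and Pycr1. Of all 32851 promoter windows 3.97% hold it. The stretches from 150 to 16 bases before the start site are shown because they hold these matches, which are in capitals. They lie on the minus strand at chr19:43524621-43524755 (Got1), chr6:7693225-7693359 (Asns) and chr11:120643764-120643898 (Pycr1).
Got1: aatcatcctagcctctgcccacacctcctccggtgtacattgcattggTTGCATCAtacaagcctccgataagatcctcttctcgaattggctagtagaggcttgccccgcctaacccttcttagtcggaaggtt
Asns: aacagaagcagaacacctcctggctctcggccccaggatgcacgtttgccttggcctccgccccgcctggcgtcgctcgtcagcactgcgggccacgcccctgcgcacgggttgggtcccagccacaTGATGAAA
Pycr1: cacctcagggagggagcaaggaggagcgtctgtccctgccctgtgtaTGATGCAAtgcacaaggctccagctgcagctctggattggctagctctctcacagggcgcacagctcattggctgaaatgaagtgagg
The matches begin 102 bases before the start site in Got1, 23 in Asns and 103 in Pycr1. Such a match is a description of the letters and not a binding site. The letters searched do not show which factor, if any, acts there in these tissues.

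Levels are given as CPM, the expected counts of a gene in each 1000000 counts of its library, normalised with TMM within a tissue. The totals behind them were 21047242 to 24919377 counts per library for BAT and 23050918 to 23425284 for SkM. A gene was called changed at an adjusted p under 0.05 (edgeR's quasi-likelihood test, Benjamini-Hochberg over all genes tested) together with a fold change above 1.5. The share of all genes whose groups do not overlap was not counted in any comparison. Statements that groups did not overlap are therefore descriptions and by themselves no sign of a change. Markers of other tissues varied between libraries. The mean log2(CPM + 1) of 10 fast muscle genes, here the muscle marker score, ran from 0.396 to 5.83 in control BAT, reached 6.92 in CR, ran from 0.645 to 8.30 in EX and 6.43 to 8.92 in CREX, against 13.0 to 13.8 in SkM, with none of the 10 genes at 0 in any BAT library. In SkM the score of 5 hepatocyte genes was 2.04 to 4.18 in CR and at most 0.865 in control, and the score of 5 slow fibre genes was 3.75 or more in all libraries but 2 of CREX, which stood at 2.63 and 1.14. The brown fat gene Ucp1 stood at 2954 to 4750 CPM in BAT of the ad libitum groups, at 1373 to 2583 CPM in BAT of the restricted groups and at most 0.138 CPM in SkM.

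In the control mice the 9 enzymes had different orders of level in the 2 tissues. All 9 differed between control BAT and control SkM, where 60.0% of all genes tested were called, and 3 were higher in BAT and 6 in SkM. Asns was 41.9-fold higher in BAT (log2 5.39 ± 0.13 SE), Glul 6.36-fold (2.67 ± 0.19) and Gpt 2.42-fold (1.28 ± 0.10). Both aspartate aminotransferases and the mitochondrial alanine aminotransferase were far higher in SkM. Got1 stood 46.6-fold higher in SkM than in BAT, Got2 25.6-fold and Gpt2 13.8-fold. Of the proline enzymes, Pycr1 was 15.9-fold, Oat 3.86-fold and Aldh18a1 3.25-fold higher in SkM (edgeR adjusted p at most 1.1e-04 for each of the 9).

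Per kilobase of transcript, Glul led in control BAT with 374 ± 44.9 CPM per kb (SD, n = 3), followed by Gpt (30.5), Asns (24.0), Oat (17.1), Got2 (10.7), Got1 (4.49), Gpt2 (2.73), Aldh18a1 (0.316) and Pycr1 (0.0866). The ranges of neighbours in this order did not overlap. In control SkM the order was Got2 with 227 ± 8.97 CPM per kb (SD, n = 4), Got1 (173), Oat (54.4), Glul (48.5), Gpt2 (31.0), Gpt (10.4), Pycr1 (1.15), Aldh18a1 (0.852) and Asns (0.474). Here Oat and Glul overlapped, as did Pycr1 with Aldh18a1 and Aldh18a1 with Asns. The form of alanine aminotransferase that led differed between the tissues, since the per-length ratio of Gpt2 to Gpt was 0.0907 ± 0.0212 in control BAT and 3.00 ± 0.476 in control SkM.

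Glul rose most under CR in SkM. It stood at 181, 106, 110 and 145 CPM in the 4 control libraries and at 927, 644 and 764 CPM in the 3 CR libraries, so that the lowest CR library lay far above the highest control. EX libraries held 191, 178, 158 and 89.4 CPM, and CREX libraries 714, 953 and 821 CPM. The groups thus fell into a low pair, both fed ad libitum, and a high pair, both restricted. CR against control gave a 5.77-fold rise (log2 2.53 ± 0.21 SE, edgeR adjusted p = 1.3e-04) and CREX against EX a 5.38-fold rise (2.43 ± 0.24, adjusted p = 0.00187). In such bulk samples, fewer cells of a type and less RNA per cell cannot be told apart.

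**Figure D1:**
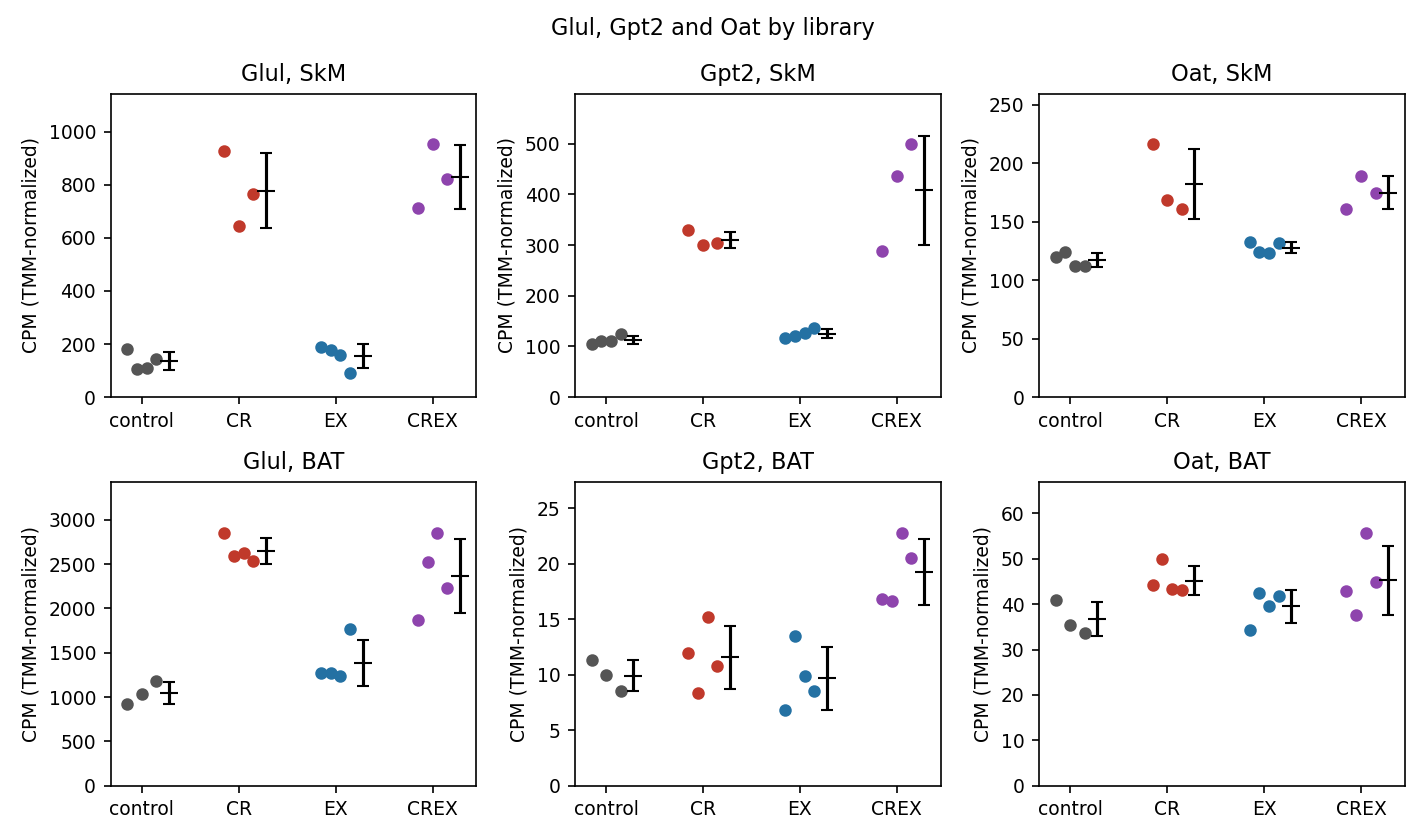
CPM of Glul, Gpt2 and Oat in each SkM (upper row) and BAT (lower row) library by group, with points for libraries and bars for the mean ± SD. In SkM all 3 genes sit higher in every CR and CREX library than in any control or EX library, with Glul at 644 CPM or more against at most 191 CPM, whereas in BAT this holds for Glul alone.

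Gpt2 followed the same 2 levels in SkM. Control libraries held 105, 111, 111 and 124 CPM and EX libraries 116, 121, 126 and 137 CPM, against 329, 299 and 304 CPM in CR and 288, 436 and 499 CPM in CREX. No restricted library overlapped an ad libitum library. The rise was 2.77-fold in CR (log2 1.47 ± 0.11 SE, edgeR adjusted p = 7.2e-05) and 3.26-fold in CREX against EX (1.71 ± 0.17, adjusted p = 0.00152). The cytosolic form did not move with it, at 16.4 to 19.8 CPM in control and 16.4 to 18.4 CPM in CR (log2 -0.08 ± 0.11, adjusted p = 0.664). The per-length ratio of Gpt2 to Gpt was 8.33 to 9.01 in CR and 6.14 to 22.7 in CREX, above the 2.61 to 3.72 of all control and EX libraries. In CREX replicates 2 and 3 Gpt itself was also low, at 9.44 and 11.0 CPM against 18.1 to 22.0 CPM in EX.

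Oat was the third enzyme called in SkM of CR mice. Its level was 112 to 124 CPM in control, 216, 169 and 161 CPM in CR, 123 to 132 CPM in EX and 161, 189 and 175 CPM in CREX. The restricted groups again lay above both ad libitum groups without overlap. The change was 1.56-fold in CR (log2 0.64 ± 0.13 SE, edgeR adjusted p = 0.00959), and without the first CR library it was 0.49 on the log2 scale and under the 1.5-fold threshold. In CREX against EX the change was 1.37-fold (0.45 ± 0.10, adjusted p = 0.0204) and passed the adjusted p alone. Altogether 3 of the 9 enzymes were called in SkM of CR mice and 2 of 9 in CREX against EX, beside 9.60% and 8.87% of all genes tested. Higher calls made up 4.27% and 3.70% of the genes and lower calls 5.32% and 5.17%, and 13.6% passed the adjusted p alone in CREX against EX.

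The other SkM enzymes missed the thresholds. Aldh18a1 stood at 1.98 to 4.14 CPM in control and at 1.84, 1.74 and 1.34 CPM in CR, 54.6% of the control mean, with an edgeR adjusted p of 0.0561. DESeq2 gave this difference an adjusted p of 0.0321, and the same edgeR test with the slow fibre score in the model 0.0148. Pycr1 stood at 2.81 to 3.71 CPM in control, 2.56 to 5.18 in CR, 2.53 to 3.87 in EX and 3.66 to 5.99 in CREX (CREX against EX log2 0.63 ± 0.21, edgeR adjusted p = 0.0760). Asns was low in SkM, at 0.593 to 2.15 CPM (15 to 49 counts) over all groups.

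The aspartate aminotransferases split the 3 CREX libraries of SkM. Got1 stood at 391, 145 and 172 CPM and Got2 at 734, 364 and 422 CPM in CREX replicates 1, 2 and 3, against 328 to 417 CPM and 614 to 780 CPM in EX. Gpt, at 23.1, 9.44 and 11.0 CPM against 18.1 to 22.0 CPM in EX, was split in the same way. Replicates 2 and 3 were the libraries of lowest slow fibre score. They also had the lowest endothelial scores of SkM, 4.20 and 3.85, and the part of that score was not tested. Glul, Gpt2 and Oat were at least as high in these 2 libraries as in replicate 1. With all 3 libraries none of Got1 (log2 -0.67 ± 0.33 SE), Got2 (-0.46 ± 0.23) and Gpt (-0.45 ± 0.29) was called in CREX against EX (edgeR adjusted p = 0.204, 0.196 and 0.320). Without replicate 1 all 3 were, at -1.24, -0.82 and -0.95, and Pycr1 was called higher at 0.79. EX replicate 1, with the next lowest score of 3.75, held 413 CPM of Got1 and 780 CPM of Got2. With the slow fibre score in the model Got1 changed by -0.37 (adjusted p = 0.649) and Glul and Gpt2 remained called, at 2.25 and 1.40.

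**Figure D2:**
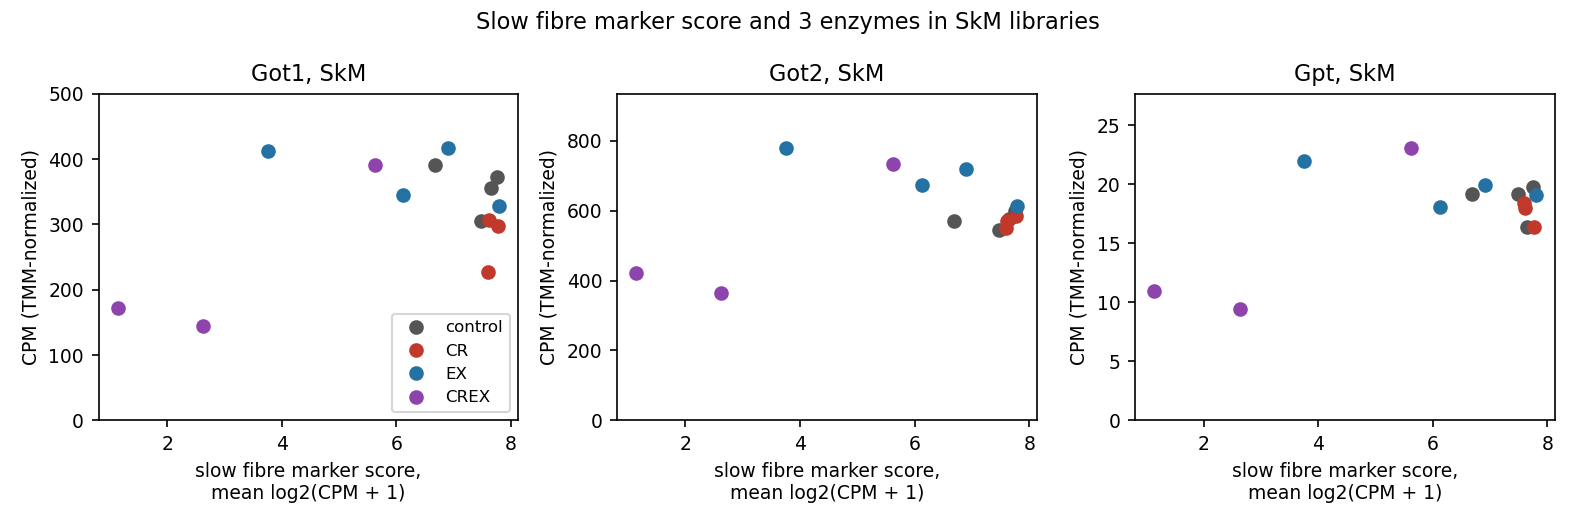
CPM of Got1, Got2 and Gpt in each SkM library against the slow fibre marker score, the mean log2(CPM + 1) of 5 genes, with a colour per group. The 2 CREX libraries with scores of 2.63 and 1.14 hold the lowest values of all 3 genes, and EX replicate 1 at a score of 3.75 holds the highest of Got2.

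Hepatocyte RNA also moved with CR in SkM, where albumin (Alb) reached 27.9 to 153 CPM in CR libraries and at most 3.21 CPM in control. CREX replicates 2 and 3 had hepatocyte scores of 0.0671 and 0.0819 and held 953 and 821 CPM of Glul and 436 and 499 CPM of Gpt2. With the 2 CR libraries of highest hepatocyte score left out, which leaves 1 CR library, Glul changed by 2.79 and Gpt2 by 1.56 on the log2 scale, both called. In that fit Asns (1.19) and Got1 (-0.63) were called as well, so that 5 enzymes were. Within a single CR library no spread can be measured, and its variation is assumed to match that of control.

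In BAT, Glul was the most abundant of the 9 enzymes and rose again under CR. It stood at 926, 1031 and 1176 CPM in control and at 2854, 2587, 2620 and 2529 CPM in CR. EX libraries held 1265, 1274, 1234 and 1773 CPM and CREX libraries 1865, 2519, 2845 and 2229 CPM. Every restricted library was higher than every ad libitum library. The change was 2.54-fold in CR against control (log2 1.34 ± 0.09 SE, edgeR adjusted p = 2.2e-05) and 1.70-fold in CREX against EX (0.77 ± 0.15, adjusted p = 0.0189). The second call was lost without EX replicate 2 (0.73, adjusted p = 0.0545) or EX replicate 3 (0.72, adjusted p = 0.0510). The muscle marker percent of each BAT library, applied to the SkM level of Glul, corresponded to at most 1.13% of the Glul in that library.

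The rise of Glul was smaller in BAT than in SkM. The difference between the tissues was -1.18 ± 0.25 on the log2 scale for CR against control (edgeR adjusted p = 0.0105) and -1.66 ± 0.30 for CREX against EX (adjusted p = 0.00829). Gpt2 also differed for CR against control (-1.23 ± 0.22, adjusted p = 0.00375), as it was flat in BAT and rose in SkM. Got1 differed in the other direction (1.34 ± 0.22, adjusted p = 0.00189). Gpt had a difference of 0.58 ± 0.13 (adjusted p = 0.0154), just under the 1.5-fold threshold, and was called under 12 alternatives. In all 3 of 9 enzymes were called in this test beside 6.29% of genes (7.58% at the adjusted p alone), and 2 of 9, Glul and Pycr1, for CREX against EX beside 4.57%.

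Asns and Gpt rose less but evenly in BAT of CR mice. Asns stood at 44.0, 50.4 and 50.9 CPM in control and at 71.3, 67.5, 68.6 and 69.8 CPM in CR (log2 0.52 ± 0.07 SE, edgeR adjusted p = 0.00113). Gpt stood at 49.0, 56.8 and 58.0 CPM in control and at 70.6, 79.7, 79.3 and 78.4 CPM in CR (0.50 ± 0.08, adjusted p = 0.00285). Neither gene overlapped between these groups, and both passed the adjusted p while staying under the 1.5-fold threshold, at 1.43-fold and 1.41-fold. Oat likewise passed the adjusted p alone, at 33.7 to 41.0 CPM in control and 43.2 to 50.0 CPM in CR (0.30 ± 0.09, adjusted p = 0.0310). In CREX against EX the values were 64.9 to 74.7 against 48.1 to 65.3 CPM for Asns (0.34 ± 0.09, adjusted p = 0.0534), 63.8 to 73.7 against 46.9 to 70.3 CPM for Gpt (adjusted p = 0.187) and 37.6 to 55.8 against 34.3 to 42.4 CPM for Oat (adjusted p = 0.346). With the muscle marker score in the model Asns and Gpt passed the adjusted p there too, at 0.0346 and 0.0206.

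**Figure D3:**
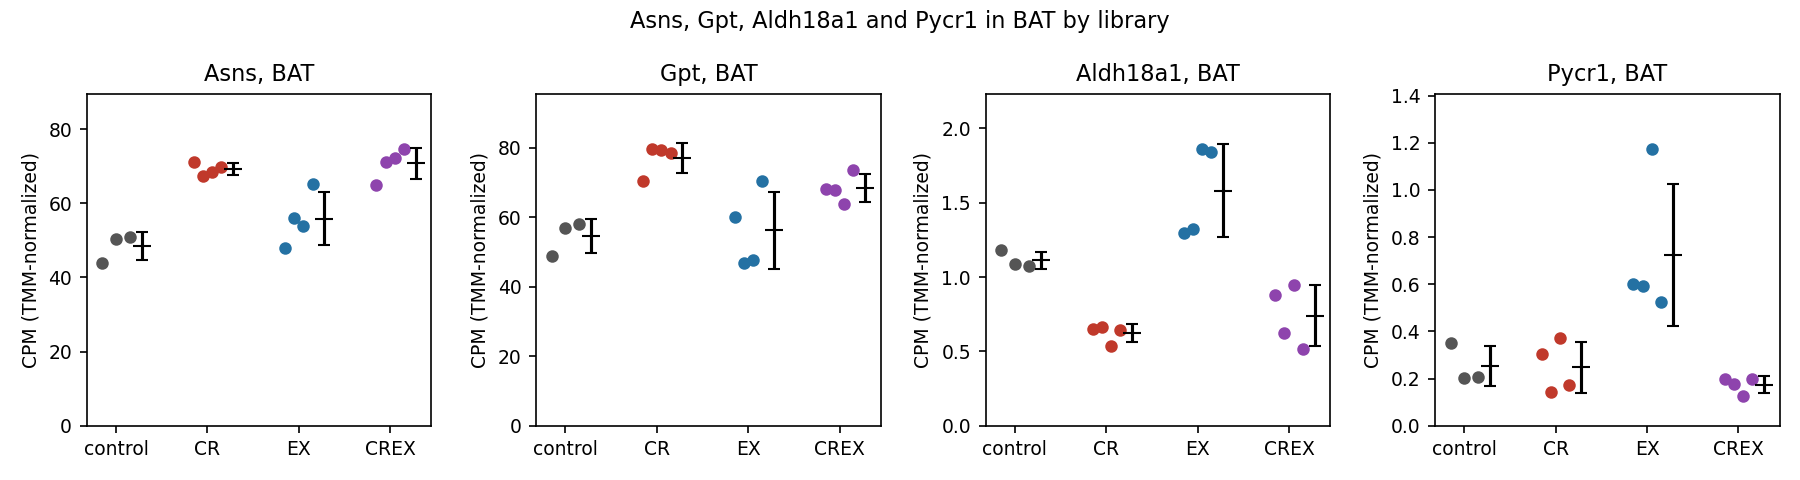
CPM of Asns, Gpt, Aldh18a1 and Pycr1 in each BAT library by group, with points for libraries and bars for the mean ± SD. Asns and Gpt are higher in all CR libraries than in all control libraries, Aldh18a1 is lower in all restricted libraries than in all ad libitum libraries, and Pycr1 is highest in the 4 EX libraries (12 to 29 counts).

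Of the enzymes that build proline from glutamate, both at low counts in BAT, Aldh18a1 was lower in both diet comparisons and Pycr1 in CREX against EX. Aldh18a1 stood at 1.18, 1.09 and 1.07 CPM in control (26 to 27 counts) and at 0.651, 0.662, 0.536 and 0.645 CPM in CR (13 to 15 counts). It stood at 1.29, 1.33, 1.86 and 1.84 CPM in EX and at 0.878, 0.621, 0.950 and 0.513 CPM in CREX. No restricted library reached an ad libitum library, which is a description, as the share of all genes that separate so was not counted. The level in CR was 56.0% of control (log2 -0.83 ± 0.23 SE, edgeR adjusted p = 0.0279) and that in CREX was 46.9% of EX (-1.10 ± 0.26, adjusted p = 0.0330). The first of these calls was lost with DESeq2 (adjusted p = 0.0979), without a filter on low counts (0.0624), with the replicate block (0.120) and without CR replicate 1, CR replicate 4 or any 1 control library (0.0517 to 0.0867). The second was lost with the replicate block (0.0608) and without any 1 library other than CREX replicate 3 and EX replicate 1 (0.0548 to 0.0851).

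Pycr1 had 5 to 8 counts in control BAT and 3 to 9 in CR, too few to be tested in that comparison, and its mean level in CR was 97.9% of control with overlapping ranges. It had 13, 13, 29 and 12 counts in EX (0.600, 0.594, 1.17 and 0.525 CPM) and 5, 4, 3 and 5 counts in CREX (0.200, 0.177, 0.124 and 0.197 CPM). The 2 trained groups did not overlap, and CREX stood at 24.1% of EX (log2 -2.03 ± 0.39 SE, edgeR adjusted p = 0.0139). Pycr1 passed the count filter here only through EX, since without EX libraries, as in CREX against CR, it was not tested. A filter passed through the high group alone favours a difference, so this call is a description and no support for a change. EX replicate 3, with the highest Pycr1, also had the highest fibroblast score of BAT, 6.98 against 5.28 to 5.45 in the other EX libraries, and the difference without it was called as well. The muscle marker percent of the CREX libraries, applied to the SkM level of Pycr1, corresponded to 15.6% to 151% of the Pycr1 measured there. The upper end, in CREX replicate 3 with 3 counts, exceeds the measured level, so the percent fails as a share in that library. With the muscle marker score in the model the difference was -2.13 ± 0.39 (edgeR adjusted p = 0.0133). In SkM the same comparison ran the other way, and the difference between the tissues was -2.66 ± 0.43 (adjusted p = 0.00574).

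Got1 rose in BAT of CR mice and was variable in trained mice. It stood at 10.6, 8.77 and 8.33 CPM in control and at 16.6, 14.3, 21.3 and 20.3 CPM in CR, a 1.96-fold change without overlap (log2 0.97 ± 0.15 SE, edgeR adjusted p = 0.00180). EX libraries held 19.9, 25.5, 24.4 and 9.98 CPM and CREX libraries 15.7, 16.1, 41.0 and 22.3 CPM. Got1 is a muscle-rich gene, and the muscle marker percent of the libraries corresponded to 0.110% to 19.2% of its level in control, 0.206% to 11.8% in CR, 0.173% to 45.0% in EX and 9.75% to 22.3% in CREX. The percent rests on fast muscle genes. The slow fibre score reached 5.92 in BAT EX replicate 3 and 6.72 in BAT CREX replicate 3, against 1.14 to 5.63 in SkM of CREX mice. Slow fibre RNA is thus not measured by the percent for any enzyme, and its part was not tested. CR replicates 1 and 2, whose muscle marker scores were at most 2.50, held 16.6 and 14.3 CPM, and CR replicates 3 and 4, with scores of 6.92 and 6.03, held 21.3 and 20.3 CPM. With the score in the model the change was 0.86 ± 0.10 (adjusted p = 4.5e-04). In 1 fit over all 4 BAT groups the adjusted p was 0.0920. The mitochondrial partner Got2 stood at 24.7 to 30.6 CPM in control and 24.9 to 36.7 in CR (0.13 ± 0.14, adjusted p = 0.532), so the per-length ratio of Got2 to Got1 was 2.39 ± 0.0351 (SD, n = 3) in control and 1.39 ± 0.487 (SD, n = 4) in CR, and no CR library reached the control range.

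Gpt2 stood highest in BAT of mice that had both treatments. It stood at 11.3, 9.94 and 8.50 CPM in control, 11.9, 8.33, 15.2 and 10.8 CPM in CR, 6.79, 13.4, 9.84 and 8.53 CPM in EX and 16.8, 16.7, 22.8 and 20.5 CPM in CREX. Every CREX library was above every other library. CREX against EX gave a 1.98-fold difference (log2 0.99 ± 0.20 SE, edgeR adjusted p = 0.0229), which lost its call without CREX replicate 3, CREX replicate 4, EX replicate 3 or EX replicate 4 (adjusted p 0.0525 to 0.0617). CREX against CR gave 0.73 ± 0.17 (adjusted p = 0.386), which DESeq2 called (adjusted p = 0.0165), and the interaction of diet and training was not called (0.77 ± 0.30, edgeR adjusted p = 0.849). All CREX libraries also had muscle marker scores of 6.43 or more, and their muscle marker percent corresponded to 15.7% to 69.5% of their Gpt2. With the score in the model CREX against EX remained called at 0.90 ± 0.19 (adjusted p = 0.0263), and without the 3 libraries of scores above 8 at 1.23 ± 0.15 (adjusted p = 0.00969). Without those libraries Glul (0.54), Aldh18a1 (-1.22) and Pycr1 (-1.52) were no longer called in that comparison. The libraries left out were EX replicates 2 and 3 and CREX replicate 3, and both groups were smaller. With all libraries Glul stood at 0.77, Aldh18a1 at -1.10 and Pycr1 at -2.03, so the estimates of Glul and Pycr1 shrank in that fit. Why the calls were lost was not tested.

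**Figure D4:**
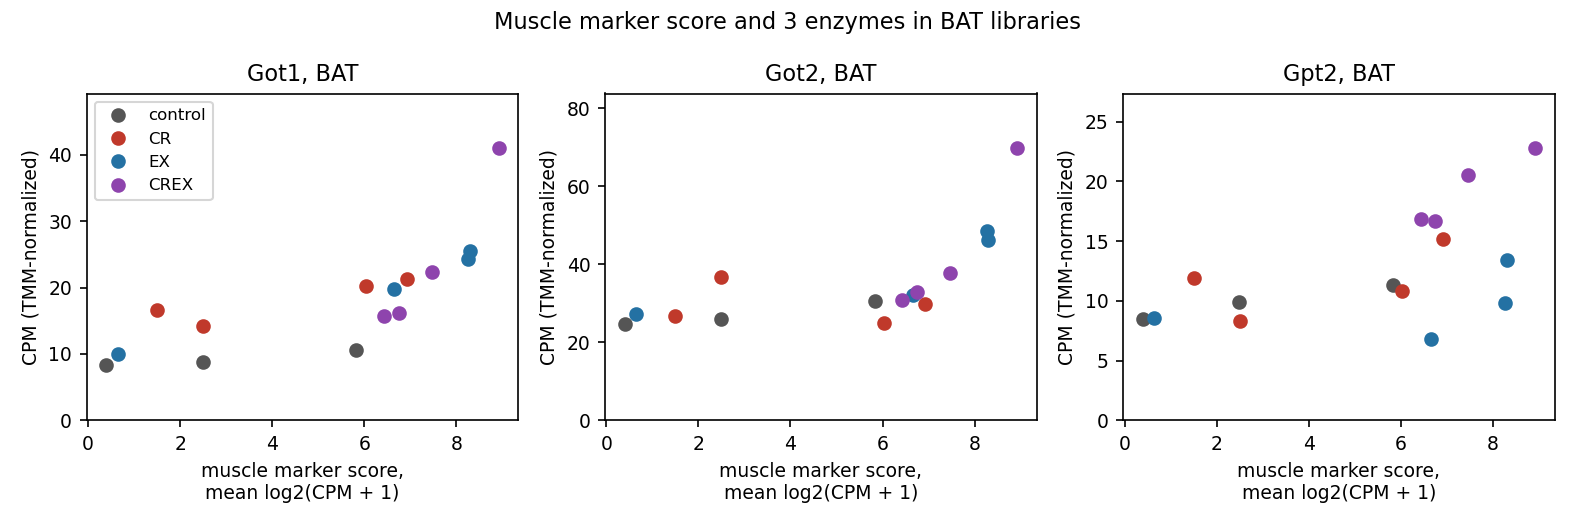
CPM of Got1, Got2 and Gpt2 in each BAT library against the muscle marker score, the mean log2(CPM + 1) of 10 genes, with a colour per group. The CREX library with the score of 8.92 has the highest value of all 3 genes, and the CR libraries with scores of 2.50 or less hold more Got1 than any control library.

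In BAT, 8 of the 9 enzymes could be tested in CR against control and 3 were called, beside 10.7% of all genes (3.87% higher and 6.86% lower). The adjusted p alone was passed by 6 of the 8 and by 20.9% of all genes. The median log2 fold change of the 8 was 0.40, against 0.00 over all genes. In CREX against EX 4 of 9 were called beside 4.48% of all genes (1.86% higher and 2.63% lower), with a median of 0.25. They include Pycr1, which passed the count filter there only through EX. Fibroblast scores moved with diet in BAT, at 4.27 to 4.65 in every restricted library and 5.13 or more in every ad libitum library, so that this score and the diet cannot be told apart there. In SkM it was likewise 4.05 to 4.57 in every restricted library and 5.01 or more in every ad libitum library. Scores of other cell types separated fully by diet as well, with endothelial genes in SkM at 3.85 to 4.97 in restricted and 5.14 to 5.47 in ad libitum libraries, and lymphocyte genes in BAT at 0.0329 to 0.183 and 0.227 to 0.414. The muscle marker score of SkM itself separated too, at 13.46 to 13.85 in restricted and 13.03 to 13.43 in ad libitum libraries. In BAT the fibroblast score was also fitted as a covariate, with the counts given in the last section, but such a fit cannot separate it from diet. The part of the other scores in the diet comparisons, and of the fibroblast score in SkM, was not tested.

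In the fits over all groups of a tissue, the average of the 2 diet comparisons was called for 4 of 9 enzymes in BAT, where 11.8% of genes were called and 33.4% passed the adjusted p alone. Glul (log2 1.05 ± 0.10 SE) and Gpt2 (0.60 ± 0.15) were higher, and Pycr1 (-1.02 ± 0.30) and Aldh18a1 (-0.97 ± 0.17) were lower, with edgeR adjusted p of at most 0.0168. The value of Gpt2 fell under the 1.5-fold threshold without CR replicate 3, control replicate 3, CREX replicate 3, EX replicate 1 or EX replicate 4 (0.52 to 0.57) and with the muscle marker score in the model (0.51). Pycr1 lost its call without control replicate 1 (adjusted p = 0.0642) and without the libraries of muscle scores above 8 (-0.76, adjusted p = 0.0965). The average for Pycr1 covers unlike comparisons, since the level in CR was 97.9% of control and that in CREX 24.1% of EX, with an interaction of -2.02 ± 0.60 (adjusted p = 0.824). Pycr1 entered this fit, too, through its EX counts alone. In SkM 3 of 9 were called beside 14.1% of genes (33.5% at the adjusted p alone), which were Glul (2.48 ± 0.17), Gpt2 (1.59 ± 0.11) and Aldh18a1 (-0.66 ± 0.24, adjusted p = 0.0467). The call of Aldh18a1 was lost without any 1 library other than control replicate 1, CREX replicate 2 and EX replicate 3 (adjusted p 0.0511 to 0.101). Oat (0.55 ± 0.08) and Got1 (-0.52 ± 0.18) passed the adjusted p alone, at 2.1e-04 and 0.0361.

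**Figure D5:**
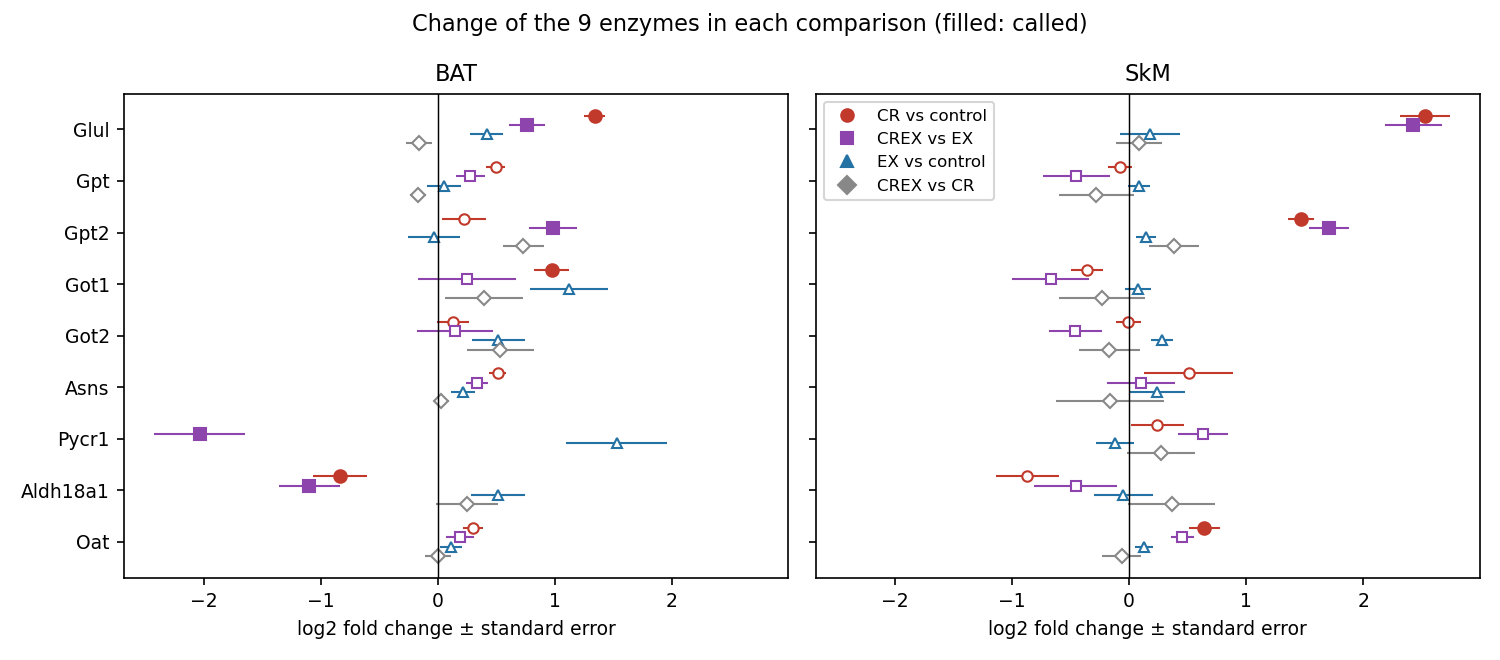
Log2 fold change ± standard error of the 9 enzymes in the 4 comparisons of BAT (left) and SkM (right), with filled symbols for called changes. The diet comparisons carry all filled symbols, with Glul from 0.77 to 2.53, and the training comparisons carry none.

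Training gave no call among the 9 enzymes by the edgeR test. In BAT the background of EX against control was 0% (0 of 13407 genes, with 972 at an unadjusted p under 0.05 and 39 called by DESeq2). The lowest member p was that of Pycr1 (log2 1.53 ± 0.43 SE, edgeR adjusted p = 0.445), followed by Got1 (2.17-fold, adjusted p = 0.562) and Glul (0.42 ± 0.14, adjusted p = 0.580). Glul, Pycr1 and Aldh18a1 did not overlap between these groups, but the share of all genes without overlap was not counted, so this is no sign of a change. DESeq2 called Got1 (adjusted p = 0.0147), as did edgeR without EX replicate 4 (1.34, adjusted p = 0.0297), the EX library with a muscle marker score of 0.645. CREX against CR had 0.00763% of genes called in BAT and the average training effect 0.00718%. In SkM the background was 0.0775% for EX against control, 0% for CREX against CR (0 of 13068 genes, 477 unadjusted and 17 by DESeq2) and 0.0294% for the average training effect. Of the 9 enzymes Got2 alone separated there between EX (614 to 780 CPM) and control (544 to 599 CPM), with an edgeR adjusted p of 0.484. The share of all genes that separated was not counted here either. The interaction of diet and training called 0% of genes in both tissues (800 and 669 genes at an unadjusted p under 0.05, and 4 and 4 by DESeq2).

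Other genes of the same routes were taken from lists. Called higher among all genes tested were 3.87% (CR) and 1.86% (CREX against EX) in BAT and 4.27% and 3.70% in SkM. Called lower were 6.86% and 2.63% in BAT and 5.32% and 5.17% in SkM. Proline dehydrogenase (Prodh), which starts the breakdown of proline, rose in all 4 diet comparisons, by log2 1.29 ± 0.11 (CR) and 1.14 ± 0.24 (CREX against EX) in BAT and by 1.46 ± 0.12 and 0.81 ± 0.20 in SkM (edgeR adjusted p at most 0.0324). It was 1 of 9 tested genes in a list of proline and ornithine relatives. That list had 2 called higher in BAT of CR mice, with the collagen prolyl hydroxylase subunit P4ha2 (0.75), and 2 in BAT of CREX mice, with the prolidase Pepd (0.78), which frees proline from dipeptides. In SkM Prodh was the only higher call of the list in both comparisons, and Azin1, which frees ornithine decarboxylase from its inhibitor, was lower in CR (-0.81). The list medians were 0.40 and 0.20 in BAT and -0.31 and -0.17 in SkM, with medians over all genes of at most 0.01 in size.

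Among the transporters of alanine, glutamine and neutral amino acids, Slc7a8 rose by log2 1.40 ± 0.18 in BAT of CR mice, by 1.53 ± 0.12 in SkM of CR mice and by 1.29 ± 0.19 in SkM of CREX against EX (edgeR adjusted p at most 0.00783). Slc7a10 rose in BAT by 1.19 and 1.35 in the same pair of diet comparisons. In SkM of CREX against EX the glutamine and alanine importer Slc38a2 (1.03) and Slc3a2 (0.60), the heavy chain partner of Slc7a8, were called higher, and in CR the transporter Slc38a4 was lower (-0.89). The counts were 2 higher of 8 and 1 of 9 tested in BAT, and 1 higher and 1 lower of 9 and 3 higher of 10 in SkM. Beside these, 3.87% and 1.86% of all genes were called higher in BAT and 4.27% and 3.70% in SkM, with 5.32% lower in SkM of CR mice. The list medians were 0.29 and 0.26 in BAT and 0.11 and 0.35 in SkM.

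Among the users of glutamine and glutamate the calls were 1 and 0 of 14 tested in BAT and 0 and 1 of 14 in SkM, numbers too small to set against the 4.48% to 10.7% called of all genes. Gclm, the modifier subunit of the enzyme that starts glutathione synthesis, rose in BAT of CR mice (log2 0.75 ± 0.12, edgeR adjusted p = 0.00192), and Cad, of pyrimidine synthesis, rose in SkM of CREX against EX (0.62 ± 0.12, adjusted p = 0.0147). No other member of that list was called in the 4 diet comparisons, and its medians were 0.13 and 0.07 in BAT and 0.11 and 0.13 in SkM. The list of aspartate users and shuttle genes had 0 calls of 12 tested in BAT in both diet comparisons (13 in SkM). In SkM of CR mice the argininosuccinate synthetase Ass1 (2.10 ± 0.36) and the asparaginase Asrgl1 (0.66 ± 0.10) were higher and the mitochondrial glutamate carrier Slc25a22 (-1.06 ± 0.11) and Aspa (-0.72 ± 0.20), which splits N-acetylaspartate, were lower. In CREX against EX Asrgl1 was higher and Aspa and cytosolic malate dehydrogenase Mdh1 (-0.96 ± 0.27) were lower. The medians of that list were 0.13 and 0.09 in BAT and -0.15 and -0.39 in SkM.

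ATF4 and its targets other than Asns and Pycr1 had 0 and 1 calls of 14 tested in BAT, beside 10.7% and 4.48% of all genes. There the serine synthesis enzyme Psat1 was called in CREX against EX (log2 1.10 ± 0.14, edgeR adjusted p = 0.00264) and against CR (1.16 ± 0.13, adjusted p = 0.0343). In SkM of CR mice Chac1 and Psat1 were higher and 4 genes, with Atf5, Vldlr and Mthfd2 at the lowest p, were lower, and in CREX against EX Atf5 and Ddit3 were lower. Beside these calls, of 14 tested, 4.27% of all genes were higher and 5.32% lower in SkM of CR mice, and 5.17% lower in CREX against EX. Atf4 itself was not called in any of these comparisons, and the list medians were 0.09 and -0.07 in BAT and -0.13 and 0.03 in SkM. Glucocorticoid responsive genes, a list that Glul and Gpt2 were not part of, were called higher for 6 of 12 and lower for 2 of 12 in BAT of CR mice, and for 4 of 12 in CREX against EX. In SkM they were higher for 8 of 12 and for 6 of 12. Among all genes, 3.87% and 1.86% were called higher in BAT (6.86% lower in CR) and 4.27% and 3.70% higher in SkM. Fkbp5, a chaperone partner that limits the glucocorticoid receptor, changed by 4.03 ± 0.45 and 3.46 ± 0.40 in BAT and by 2.78 ± 0.15 and 3.27 ± 0.23 in SkM. Sgk1 (-1.49) and Errfi1 (-1.04) were the 2 genes called lower in BAT of CR mice, whereas Sgk1 was higher in SkM of CR mice (0.95). The medians of this list were 0.75 and 0.97 in BAT and 1.04 and 1.48 in SkM.

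Across the libraries of a tissue, the enzymes grouped differently in BAT and SkM. Over the 15 BAT libraries Glul was closest to Asns (Pearson's r of log2 CPM 0.947) and Gpt (0.825), Got1 to Got2 (0.779) and Pycr1 to Aldh18a1 (0.689), while Glul and Aldh18a1 ran against each other (-0.707). Over the 14 SkM libraries Glul was closest to Gpt2 (0.941) and Oat (0.915), and Gpt, Got1 and Got2 formed a second group with r of 0.901 to 0.914. These libraries share the diet groups and the tissue RNA described above, so the values are descriptions. Of all genes, those most like Glul were Mdh1 (0.956), Nampt (0.955) and Pde1a (0.953) in BAT and Hif3a (0.985), Fkbp5 (0.976) and Tsc22d3 (0.975) in SkM. Those most like Gpt2 were Tfdp2, Scn3b and Rpa1 in SkM (0.979 to 0.986) and Chst1, Trf and Mknk1 in BAT (0.880 to 0.923). Oat in SkM was most like 2310022A10Rik, Gm10638 and Map2k3 (0.962 to 0.964). In BAT, Got1 was most like Atp6v0e2, Fbxo40 and Tmod1 (0.925 to 0.947), Aldh18a1 like Kdelr3, Rab11fip4 and Lama2 (0.906 to 0.933), and Pycr1 like Ms4a7, Hs2st1 and Champ1 (0.850 to 0.869).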

How the data were processed

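RNA-seq libraries of BAT and SkM were analysed, 1 per sample. Per the study's methods and the labels' processing notes, the authors trimmed reads with trim-galore, mapped them to mm10 with STAR 2.7.10a and quantified them with RSEM (1.2.28 in the notes), and the deposited values are RSEM expected counts for each gene symbol without normalization. They were rounded to whole numbers here. Which annotation was counted is not given in the sources used here. Each comparison was fitted on the whole table with edgeR 4.0.16 in R 4.3.3 (TMM, filterByExpr, robust quasi-likelihood test), on the libraries of its own groups, and average diet and training effects, the interaction and tissue differences in 1 fit over their groups. The standard error is the log2 fold change divided by the square root of F. The study used DESeq2, which is here an alternative (version 1.42.0), with RLE size factors, no count filter, no fold minimum, a replicate block, leave-one-out, marker scores as covariates and libraries left out. Lengths are those of GENCODE principal transcripts, and promoters are RefSeq's. Nothing states that same-numbered libraries come from 1 mouse. The labels give separate samples, and p-values measure only the spread between them, which may be technical. The fits were tested on simulated data. A count of 3 or less was taken as the floor. The genes and lists were chosen with earlier results of these data known. All 9 enzymes are named, from each list up to 3 called genes per direction with the smallest p, and the 3 genes of highest correlation with each enzyme called in a diet comparison of that tissue.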

Additional observations from a re-analysis of the deposited data

Results flagged for a closer look

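In 5 of 45 groups of 4 libraries a value lay apart from the others by Dixon's test at the 95% level, which chance does in about 1 in 20 groups. These were Glul in BAT EX replicate 4 (1773 CPM), Gpt in BAT CR replicate 1 (70.6 CPM), Pycr1 in BAT EX replicate 3 (1.17 CPM), Aldh18a1 in BAT CR replicate 3 (0.536 CPM) and Oat in BAT CR replicate 2 (50.0 CPM).

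The response to CR differed between the tissues for 4 enzymes at the adjusted p alone of the edgeR interaction test, of which Gpt stayed under the 1.5-fold threshold. As BAT minus SkM on the log2 scale, the difference in CR against control was -1.18 for Glul, -1.23 for Gpt2, 1.34 for Got1 and 0.58 for Gpt. For CREX against EX it was -1.66 for Glul and -2.66 for Pycr1.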

How the results depend on the processing

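Of 2695 alternative values of single enzymes none reversed a called change, 58 lost a call and 45 gained one, and 104 changed sign without being called in either fit. Of 303 alternative counts of enzymes called, 284 lay within 1.5 times the count given above. Without a fold minimum the count was 6 in CR against control in BAT (3 with it), 7 for the average diet effect in BAT (4) and 5 for that in SkM (3). DESeq2 called 1 enzyme in EX against control (Got1) and 1 in CREX against CR (Gpt2) of BAT, where edgeR called 0. The covariate and left-out-library fits other than the muscle score were chosen after seeing the data. With the fibroblast score as a covariate the BAT counts were 0 in CR against control, 0 in CREX against EX and 1 for the average diet effect. The ranges of this score do not overlap between diets, so such a fit cannot separate it from diet. In CR against control Glul was 1.37 ± 0.35 SE with the score and 1.34 ± 0.09 without it. Got1 was 0.60 ± 0.60 with it and 0.97 ± 0.15 without. Without the libraries of highest muscle score the count was 1 in CREX against EX of BAT, and without those of highest hepatocyte score it was 5 in CR against control and 5 for the average diet effect of SkM. Leaving out 1 library at a time gave 1 to 4 in CREX against EX of BAT (2 without CREX replicate 4, EX replicate 2 or EX replicate 4, and 1 without EX replicate 3), 0 to 1 in EX against control of BAT, 2 to 6 in CREX against EX of SkM, 0 to 2 for the SkM interaction and 2 to 4 for the tissue difference in CREX against EX, and in each of the last 3 the highest count came without CREX replicate 1 of SkM. Elsewhere it gave 2 to 3 in CR against control of BAT, 3 to 4 for the average diet effect of BAT, 2 to 4 in CR against control of SkM, 2 to 3 for the average diet effect of SkM and 3 to 4 for the tissue difference in CR against control. Correlations of the deviations of same-numbered libraries of 2 groups within a tissue ran from -0.466 to 0.484, with 3 or 4 pairs per comparison. Such few pairs cannot exclude shared batches. Whether BAT and SkM libraries came from the same mice was not tested. With the replicate block the average diet effect of Aldh18a1 in SkM lost its call (adjusted p = 0.0752), beside the 2 BAT calls of that gene given above, and no other call of an enzyme changed. The other causes were not tested. Depth limits Pycr1 and Aldh18a1 in BAT and Asns in SkM.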
